A study of Mus musculus with 3 samples.

Results

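CpG island promoters of a single gene were examined in chromatin immunoprecipitation data for SRF, the serum response factor, from mouse cornea. A merged region was a member when the authors' table listed at least 1 CpG island in it and exactly 1 gene with its start within 1000 bp of the region's centre. The rule used only annotation, no signal. It found 5048 members among 31850 merged regions. The members belonged to 4895 genes, of which 4745 had 1 member, 147 had 2 and 3 (Jag2, Tsc22d2 and Yy1) had 3. Regions of the same gene share their target and are not independent.

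The study sequenced whole cornea from mice of mixed background aged to about 8 weeks, without treatment. An SRF library titled mutant came from Dstn-corn1 mice, which carry a mutation of Dstn, the gene for the actin-depolymerizing protein destrin, and another SRF library was titled wildtype. Of the 3 libraries, the last was input without antibody, whose values were not used here. The wildtype title stands against the growth protocol, which gives the mutant for every library. The number of corneas per library is not stated in the labels. Each genotype is represented by 1 library, so differences could not be set against a spread between replicates, and p-values were not computed. In whole cornea, a different mix of cell types and a different signal per cell cannot be told apart. SRF signal does not measure expression, so the tissue label could not be checked with marker genes.

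SRF is a MADS-box transcription factor that binds the CArG box, a short AT-rich stretch between a CC and a GG, which is unlike the GC-rich sequence of a CpG island. It works with 2 families of partners, the ternary complex factors at immediate early genes and the actin-regulated MRTF coactivators at cytoskeletal genes. CpG islands are stretches rich in unmethylated CG pairs, and most widely expressed genes start in them. Destrin severs and depolymerizes actin filaments, and free actin holds MRTF back from SRF.

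Promoter sequence was available for the members whose region overlapped the RefSeq promoter window of their gene (250 bases before to 50 after the start, GRCm38.p6, the build known as mm10). These were 3685 of 5048 members. The following stretches are shown because they hold the SRF letters at genes with signal in both libraries. Capitals mark every CArG box, CC, then 6 bases that are A or T, then GG. The Srf stretch is limited to its pair of boxes because, though upstream of the start used here, it lies within the span that RefSeq gives for the gene.
Dusp5, chr19:53529028-53529127, plus strand: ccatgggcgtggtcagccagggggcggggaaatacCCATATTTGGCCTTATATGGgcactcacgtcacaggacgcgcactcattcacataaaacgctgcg
Dnajc16, chr4:141790741-141790840, minus strand: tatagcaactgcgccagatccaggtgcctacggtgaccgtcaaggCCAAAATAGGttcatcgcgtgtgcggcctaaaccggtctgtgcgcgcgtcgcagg
Vcl, chr14:20929148-20929247, plus strand: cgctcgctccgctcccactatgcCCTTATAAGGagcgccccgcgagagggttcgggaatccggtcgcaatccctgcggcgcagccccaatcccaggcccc
Srf, chr17:46556215-46556244, minus strand: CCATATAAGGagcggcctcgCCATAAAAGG

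The next stretches come from the highest members that held a different run of letters, AGGGGGCGC, which is the core of the consensus of CTCF, an insulator protein. These letters were chosen after the values had been seen. Capitals mark AGGGGGCGC.
Adprhl2, chr4:126321704-126321803, minus strand: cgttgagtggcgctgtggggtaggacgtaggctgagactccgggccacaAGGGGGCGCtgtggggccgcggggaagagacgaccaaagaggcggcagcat
Rapgef1, chr2:29619620-29619719, plus strand: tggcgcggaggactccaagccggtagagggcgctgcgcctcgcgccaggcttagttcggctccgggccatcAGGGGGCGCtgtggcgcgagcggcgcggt
Vps36, chr8:22192714-22192813, plus strand: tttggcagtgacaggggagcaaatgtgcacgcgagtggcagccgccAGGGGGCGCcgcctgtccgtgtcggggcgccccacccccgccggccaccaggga
Synm, chr7:67759811-67759910, minus strand: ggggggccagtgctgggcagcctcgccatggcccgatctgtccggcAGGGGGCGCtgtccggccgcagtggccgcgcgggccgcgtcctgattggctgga
Sh3gl1, chr17:56036683-56036782, minus strand: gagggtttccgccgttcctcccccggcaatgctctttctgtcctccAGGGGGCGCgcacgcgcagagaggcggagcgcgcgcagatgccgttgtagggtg

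For contrast, these stretches of 2 of the 10 highest members hold neither run of letters and no capitals.
Snx18, chr13:113618607-113618706, minus strand: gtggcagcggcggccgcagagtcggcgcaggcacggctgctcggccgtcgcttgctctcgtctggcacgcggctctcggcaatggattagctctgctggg
Nudt3, chr17:27623471-27623570, minus strand: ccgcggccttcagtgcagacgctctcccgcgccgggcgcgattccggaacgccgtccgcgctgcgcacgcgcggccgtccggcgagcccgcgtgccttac

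SRF signal at these promoters was low at most members and high at few. Heights are the deposited peak values, the maximum of the signal over a region in each library. The median height of members was 14 in the mutant library (quartiles 10 and 21, range 0 to 173) and 22 in the wildtype library (quartiles 16 and 41, range 4 to 319). Over all merged regions the medians were 13 and 28. The members' wildtype signal was therefore below that of an average region, while their mutant signal was slightly above it. An interval had been called in both libraries at 2888 members (57.2%, exact binomial 95% interval 55.8 to 58.6), against 48.9% of all regions. The wildtype library alone had a call at 1940 members (38.4%), against 49.0% of all regions, and the mutant library alone at 220 (4.36%), against 2.10%. All intervals on shares and medians cover counting over regions only, not variation between animals, and the read depth behind the heights is unknown.

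The mutant library was lower at most members, though less so than over all regions. Height was lower in mutant at 4493 members (89.0%), against 95.4% of all regions, and higher at 439 (8.70%), against 3.69%. The log2 ratio of mutant to wildtype height, after adding 1 to each, had a median of -0.78 (order-statistic 95% interval -0.81 to -0.76), compared with -1.10 over all regions. At least 2-fold lower in mutant were 1941 members (38.5%, interval 37.1 to 39.8), against 59.0% of all regions, and at least 2-fold higher were 16 (0.317%), against 0.414%. With the region's average value in place of its height, 901 members were at least 2-fold lower. The share over all regions was not computed for that value. The direction depended on scaling between libraries, of which the labels say nothing: with mutant heights multiplied by 2.1, which equalized the medians of regions with 2 calls, the members' median ratio was 0.23, with 149 members at least 2-fold lower and 556 at least 2-fold higher, and that of all regions was -0.090, with 2962 and 1459. Every lower or higher given here is on the deposited scale.

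**Figure D1:**
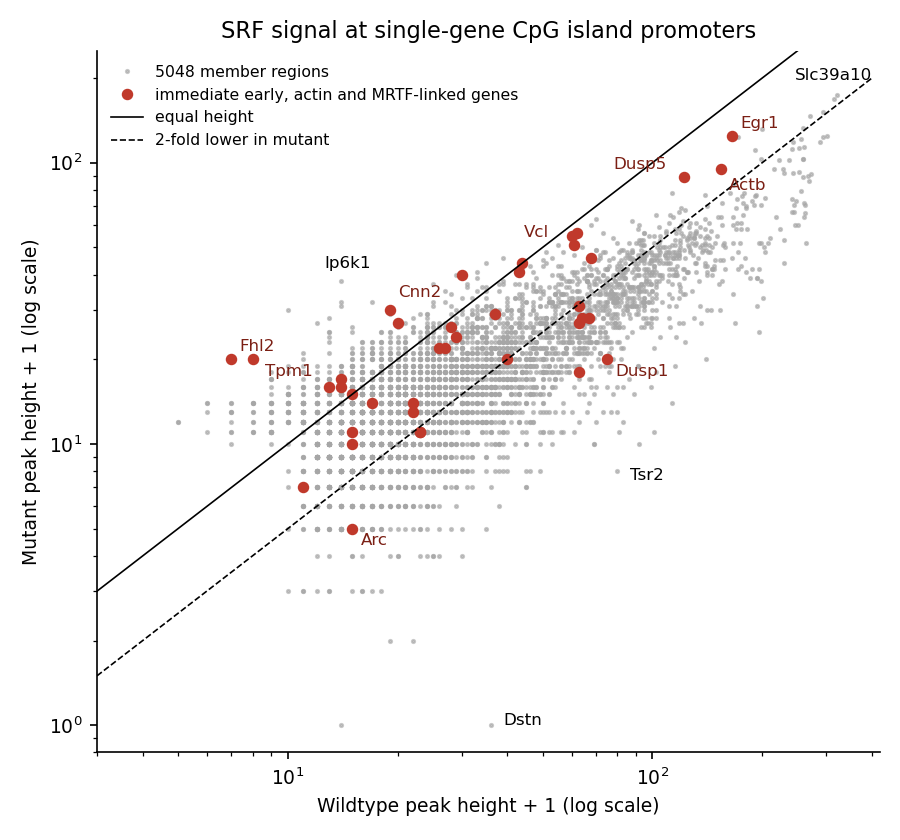
Each grey point is 1 of the 5048 members, with its wildtype height plus 1 on the horizontal axis and its mutant height plus 1 on the vertical axis, both logarithmic. Red points are members of immediate early, actin and MRTF-linked genes, the solid line marks equal heights and the dashed line a 2-fold lower mutant height. Most points lie below the solid line, while Fhl2 (19 and 6), Tpm1 (19 and 7) and Cnn2 (29 and 18 in mutant and wildtype) lie above it.

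On the deposited scale, ratios were lower at higher members. Mean height and ratio are formed from the same heights of both libraries, so the trend is not independent of how the classes were made. The same limit holds for the differences given at equal height. When members were split into 10 classes of mean height, the lowest class (means of 5.5 to 10.5) had a median ratio of -0.74. The ratio was nearest to 0 in the second class, at -0.49, where 20.6% were at least 2-fold lower. It then went down in every class to -1.31 in the highest (means of 57.5 to 246), with medians of 44 in mutant and 109 in wildtype and 81.6% at least 2-fold lower. Calls in both libraries went from 0.61% of the lowest class to 99.8% of the highest. A region is in the table only where at least 1 library had a call, so most regions of the lowest class entered through a call in a single library.

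Compared with similar regions, the members' ratio lay close to that of CpG island promoters shared by several genes and above that of the other kinds. The 1074 shared island promoters had heights of 15 and 22 and a median ratio of -0.65. The 1112 promoters without an island had 13 and 26 with a ratio of -1.0, and the 1201 islands away from gene starts also had a ratio of -1.0. With height held equal over 10 classes, members differed from shared island promoters by -0.088, from promoters without an island by 0.22 and from islands away from starts by 0.15 on the log2 scale. The interval of the first difference was -0.15 to -0.026, of the next 0.18 to 0.26 and of the last 0.096 to 0.20, all over regions only. The widths of these intervals, here and below, combine those of the raw medians of both kinds of region. They were not formed within height classes, so they are approximate. The other two differences were not seen over regions called in both libraries, where that from promoters without an island was -0.0054 (-0.069 to 0.059) and that from islands away from starts 0.019 (-0.054 to 0.091). Where either library reached a height of 28 they were 0.019 and 0.043, again with intervals that included 0. Both restrictions are set by the heights being compared, and a mutant call was required of regions whose ratio was then taken: 57.2% of members and 47.9% of promoters without an island had a call in both libraries. Whether the differences belong to weak regions was not tested.

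**Figure D2:**
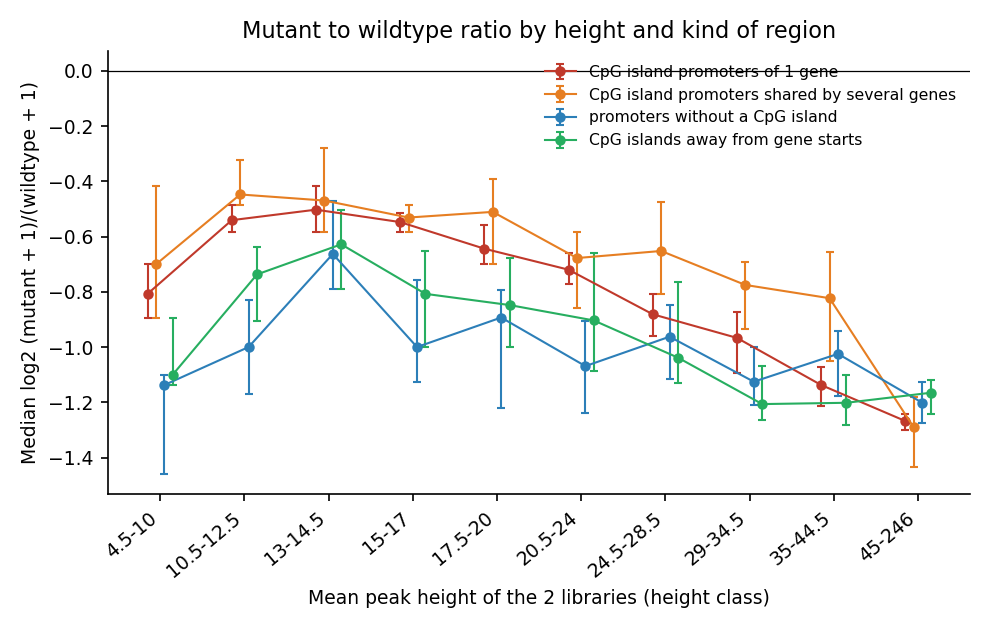
Points are median log2 ratios of mutant to wildtype height for 10 classes of mean height, for members and 3 other kinds of region, with bars giving order-statistic 95% intervals over regions. In the class of 10.5 to 12.5 the members' median was -0.54 and that of promoters without an island -1.0, and in the highest class the 4 medians ran from -1.29 to -1.17.

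Members were centred near the gene start, which the rule fixed in part by its limit of 1000 bp. The centre of the region lay a median of 11 bp upstream (listed as -11, quartiles -125 and 105), and 2278 members (45.1%) were centred within 100 bp of the start. The summit, the highest base of a called interval, was sought only in the 3685 members whose region overlapped a promoter window. Of these, 3536 had a summit in wildtype and 2333 in mutant. The median position of the summit was 47 bp upstream in wildtype (listed as -47) and 55 bp upstream in mutant (-55). The window lies mostly upstream of the start, and whether this choice of members shifted the positions was not tested. Of 2184 members with a summit in both libraries, 64.9% had the pair within 50 bp of each other, with a median distance of 32 bp. Height differed with the side of the start on which the region was centred: the 67 members centred 750 to 1000 bp upstream had medians of 16 in mutant and 34 in wildtype, the 1726 centred 0 to 250 bp downstream had 14 and 21, and the 108 centred 750 to 1000 bp downstream had 12 and 19.5. At the edge of the rule, 51 members centred 900 to 1000 bp away had heights of 14 and 24, and 46 island regions centred over 1000 and up to 1100 bp from the nearest start, just outside it, had 13.5 and 24.5.

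The promoter was the only assigned region of 1354 genes with a member. Of the 3541 genes with another assigned region beyond 1000 bp, the promoter was the higher region in wildtype at 32.5% and in mutant at 39.8%. The other region was the one with the highest mean height of all listed for the gene. This choice favours the other region where several were listed, and it could be the promoter of a neighbouring gene. Median heights were 14 and 23 at the promoter against 18 and 39 at the highest other region. The promoter's log2 ratio was above that of the other region in 64.0% of genes, with a median paired difference of 0.26. The difference was as large, 0.26, in the 661 genes whose regions had mean heights within 1.25 times of each other. Jag2, which encodes a Notch ligand, had 3 members with mutant and wildtype heights of 13 and 9, 8 and 11, and 14 and 19. Yy1, a transcription factor gene, had 15 and 21, 12 and 8, and 11 and 19, so neighbouring regions of the same promoter did not all differ in the same direction.

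Dstn, the mutated gene, was a member on chromosome 2 (143914824 to 143915669, mm10, over the gene start). Its height was 0 in mutant and 35 in wildtype. It was 1 of only 2 members at 0 in mutant, and no fold is given against a library at 0. No member was at 0 in wildtype. The zero stood in the library titled mutant. Whether the sequence is present in the mutant's genome was not tested. The Srf promoter (chromosome 17, 46555631 to 46556638) had heights of 36 and 41, and its log2 ratio was -0.18, well above the members' median.

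The 10 members with the highest mean height included genes of transport, RNA processing and the cytoskeleton. Slc39a10, a zinc transporter gene, had 173 in mutant and 319 in wildtype, and Ddx17, an RNA helicase gene, had 167 and 313. Sept7, which encodes a septin of the cytoskeleton, had 150 and 293. Epc2, a chromatin regulator gene, had 123 and 300, and Snx18, for a membrane-sorting protein, had 122 and 293. Dagla (145 and 270) encodes a lipase that makes an endocannabinoid, and Slc25a25 (117 and 287) a mitochondrial carrier. Gbas had 132 and 258, Gabarap, an autophagy gene, 120 and 255, and Nudt3, for a phosphohydrolase, 113 and 259. All 10 had a call in both libraries and were 1539 to 2737 bp long, against a median of 758 bp over members. Their log2 ratios ran from -1.29 to -0.88, so 5 of the 10 were at least 2-fold lower, against 59.0% of all regions. None of the 10 highest members with a promoter window held a CArG box or AGGGGGCGC in it.

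Members with the highest ratio were modest in height. They were chosen for this value among the 2528 members with a higher library of at least 23 and no library at 0, so the ratios are a description. Hist1h3i, a replication-linked histone H3 gene, had 29 in mutant and 9 in wildtype, and its region was centred 951 bp from the start in a histone cluster. Ip6k1, an inositol phosphate kinase gene, had 37 and 13. Prkar1a, for a regulatory subunit of protein kinase A, had 30 and 13. Srbd1 (31 and 13), Mblac1 (26 and 11), Creb3l2 (27 and 12), Myg1 (31 and 16) and Pgrmc2 (23 and 12) were also in this group of 10. Over the group, mutant heights were 23 to 37 and wildtype heights 9 to 16, and 6 of the 10 were at least 2-fold higher. The wildtype range lies near the lowest called heights, where a few units move a ratio far, and 3 of the 10 had no wildtype call.

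The members with the lowest ratio were mostly strong wildtype regions that had no mutant call. They too were chosen for their ratio among the 2528 members, so this is a description fixed in part by the choice. Tsr2, a ribosome assembly gene on chromosome X (151096047 to 151096962), had heights of 7 and 79 and a log2 ratio of -3.32. Traf6, which encodes a ubiquitin ligase of innate immune signalling, had 13 and 112. Rsrc1, for a splicing protein, had 24 and 195, and Nomo1, for a membrane protein of the endoplasmic reticulum, 19 and 139. Pqlc3 had 9 and 91, Pla2g15, a lysosomal phospholipase gene, 10 and 100, and Prkrir 10 and 80. Ankle2 (11 and 82), Uggt2 (3 and 29) and the potassium channel gene Kcnj6 (4 and 34) were the others. Only Rsrc1 and Nomo1 had a call in both libraries, while the other 8 were called in wildtype only. A call in wildtype only was found at 38.4% of members and 49.0% of all regions.

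Immediate early and ternary complex factor-linked genes, the classical group of growth-responsive SRF targets, had 23 genes with a member among 36 listed. Their median heights were 23 in mutant and 28 in wildtype, and their median log2 ratio was -0.35 (-0.76 to -0.13), against -0.78 over all members. Egr1 encodes a zinc finger transcription factor and had 123 and 164, a ratio of -0.41. Dusp5, which encodes a phosphatase that switches off the kinase ERK, had 88 and 121, a ratio of -0.46. Fosb, an AP-1 subunit gene, had 55 and 61, a ratio of -0.15. The heights of these 3 were thus close between libraries for promoters of their size. Of the 23 genes, 17 were above the members' median ratio. At least 2-fold lower were 6 (26.1%), against 38.5% of members and 59.0% of all regions. Higher in mutant were 4 (17.4%), against 8.70% and 3.69%. The same group also held promoters with much lower mutant signal, of which Dusp1 (19 and 74) and Jun (27 and 66) are given as examples chosen after their values were seen.

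Actin cytoskeleton and MRTF-linked genes had 16 genes with a member among 45 listed. Median heights were 20 and 23.5, and the median ratio was -0.35 (-1.06 to 0.28). Actb, for cytoplasmic actin, had 94 in mutant and 153 in wildtype, a ratio of -0.70. Pdlim5, for a Z-disc and stress fibre adaptor, had 45 and 67, a ratio of -0.56, and Vcl, for the adhesion protein vinculin, had 50 and 60, a ratio of -0.26. The group was wide: 4 were at least 2-fold lower (25%), against 38.5% of members and 59.0% of all regions. At least 2-fold higher were 2 (12.5%), against 0.317% and 0.414%. These were Fhl2 (19 and 6), for a LIM-domain coactivator, and Tpm1 (19 and 7), for a tropomyosin. Fhl2 and Tpm1 were named after their values were seen, and each had a call in mutant only. Set against members of the same height class, the immediate early genes lay 0.35 and the actin and MRTF-linked genes 0.58 higher on the log2 scale. The inflammation and NF-kB genes, 8 with a member, lay 0.62 higher, so such a difference was not particular to lists linked to SRF. These differences rest on few genes per class and carry no interval.

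Genes of actin filament turnover, the group to which Dstn belongs, had 19 genes with a member among 41 listed, and their median ratio of -0.86 was close to that of all members. Diap1, a formin gene, had 47 and 141, a ratio of -1.56. Coro1c, for an actin-binding coronin, had 60 and 110, and Wasf2, which activates the Arp2/3 complex, had 32 and 88. Of the 19, 9 were at least 2-fold lower, with Dstn counted (47.4%), against 38.5% of members and 59.0% of all regions. Higher in mutant was 1 (5.26%), against 8.70% and 3.69%. Of 7 genes for SRF and its cofactors only Srf and Elk4 were members, and Elk4, a ternary complex factor gene, had 13 and 11.

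Few listed genes that mark the cell types of the cornea had a member, and the share over all genes was not computed. Counts are over listed genes, of which 19 epithelium, 10 stroma, 6 endothelium and 10 vessel genes had an interval anywhere. Among 31 epithelium and keratin genes 6 had a member, with a median ratio of -0.87. Cdh1, for E-cadherin, had 16 and 41, Perp, for a desmosome protein, 16 and 20, and Gjb2, for a connexin, 11 and 19. Col6a2 (10 and 35) and Pdgfra (8 and 24) were the 2 members of 16 stroma genes, and both were called in wildtype only. Of 8 endothelium genes 2 had a member, among them Tjp1 (6 and 16), and Vegfa (24 and 73) the 1 member of 13 vessel genes. None of 17 leukocyte genes (8 with an interval anywhere) and none of 25 genes of unrelated tissues (15 with an interval) had a member. With so few members per list, shifts of cell type between the libraries could not be read from these promoters and were not tested.

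Ribosomal protein and complex I genes had higher wildtype medians than members as a whole. Ratios of the groups are best read against height, because high members had lower ratios. Of genes with an interval anywhere, 43 of 78 cytoplasmic ribosomal protein genes had a member, with median heights of 22 and 45 and a ratio of -0.90. Rpl22 had 72 and 246, Rplp0 72 and 186 and Rps3a1 45 and 164. Mitochondrial ribosomal protein genes (38 of 70) had a median ratio of -1.10, with Mrps15 at 41 and 195, Mrpl34 at 69 and 140 and Mrpl23 at 60 and 142. Genes of respiratory chain complex I and its assembly (22 of 41) had the highest wildtype median of these groups, 64.5 against 21.5 in mutant, and a ratio of -1.14. Ndufaf4 had 54 and 149 and Ndufaf3 60 and 131. Against members of the same height class these groups differed by 0.099, -0.056 and 0.019, so most of their lower ratio went with their height.

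Other groups of the protein and RNA machinery spread around the members' median. Proteasome subunit genes (25 of 44) had a ratio of -1.09, with Psma1 at 85 and 268, Psmd3 at 70 and 261 and Psmd6 at 50 and 138. DEAD and DEAH box helicase genes (25 of 47) had a ratio of -1.14, and 16 of the 25 were at least 2-fold lower, a share close to the 59.0% of all regions. Ddx17, Dhx8 (75 and 190) and Ddx18 (60 and 170) were the highest of them. Splicing factor genes of the SR, snRNP and hnRNP classes (26 of 47) had a ratio of -0.60, with Snrpb2 at 78 and 254, Snrpa1 at 52 and 228 and Sf3a3 at 54 and 140. Translation factor genes (29 of 54) had -0.51, with 21 of 29 above the members' median, though their 3 highest were far lower in mutant: Eif4g2 had 117 and 242, Eif2b3 32 and 200 and Eif3g 36 and 98. Chaperone genes (31 of 75) had -0.64, with Dnajc11 at 112 and 252, Hspa9 at 45 and 113 and Dnajc16 at 45 and 71.

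Cell cycle, inflammation, clock and Hox genes formed small groups of members. Of genes with an interval anywhere, a member was found for 15 of 28 cell cycle and 11 of 17 clock genes. It was found for 8 of 19 inflammation and NF-kB genes and 5 of 29 Hox genes. The 15 cell cycle genes with a member had medians of 14 and 23 and a ratio of -0.58. None of the 15 was higher in mutant, against 8.70% of members and 3.69% of all regions. Ccna2, for cyclin A2, had 14 and 68, Mcm5, for a replication helicase subunit, 24 and 63, and Cdk6, a cyclin-dependent kinase gene, 19 and 35. The 8 inflammation and NF-kB genes ranged widely, from a ratio of -3.01 at Traf6 to 1.00. Tnfaip3, which encodes the NF-kB inhibitor A20, had 67 and 122, and Socs3, for an inhibitor of cytokine signalling, 33 and 57. The 11 circadian clock genes had a ratio of -0.63, with the clock activator gene Arntl at 16 and 40, the repressor gene Per2 at 24 and 31, and Hlf at 16 and 26. All 5 Hox genes with a member were at least 2-fold lower, against 59.0% of all regions and 38.5% of members, with a median ratio of -1.47. Hoxa10 had 16 and 46, Hoxb5 17 and 43 and Hoxc10 9 and 44, values that differed by -1.0 on the log2 scale from members of the same height class.

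The large gene families stood close to the members as a whole. The 97 Zfp zinc finger genes had a ratio of -0.68, with Zfp398 at 44 and 152, Zfp786 at 43 and 97 and Zfp560 at 41 and 84. The 64 solute carrier genes had -0.77, with Slc48a1, a heme transporter gene, at 60 and 174. The 22 Rab GTPase genes had -0.55, with Rab12 at 29 and 140, Rab32 at 52 and 93 and Rab33b at 19 and 74. The 13 histone genes had -0.80, with H3f3b at 26 and 52, Hist1h4f at 18 and 32 and H2afy2 at 9 and 38. Each family held members higher in mutant: 10 Zfp genes (10.3%), 4 solute carrier genes (6.25%), 4 Rab genes (18.2%) and 2 histone genes (15.4%). The share was 8.70% over all members and 3.69% over all regions.

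**Figure D3:**
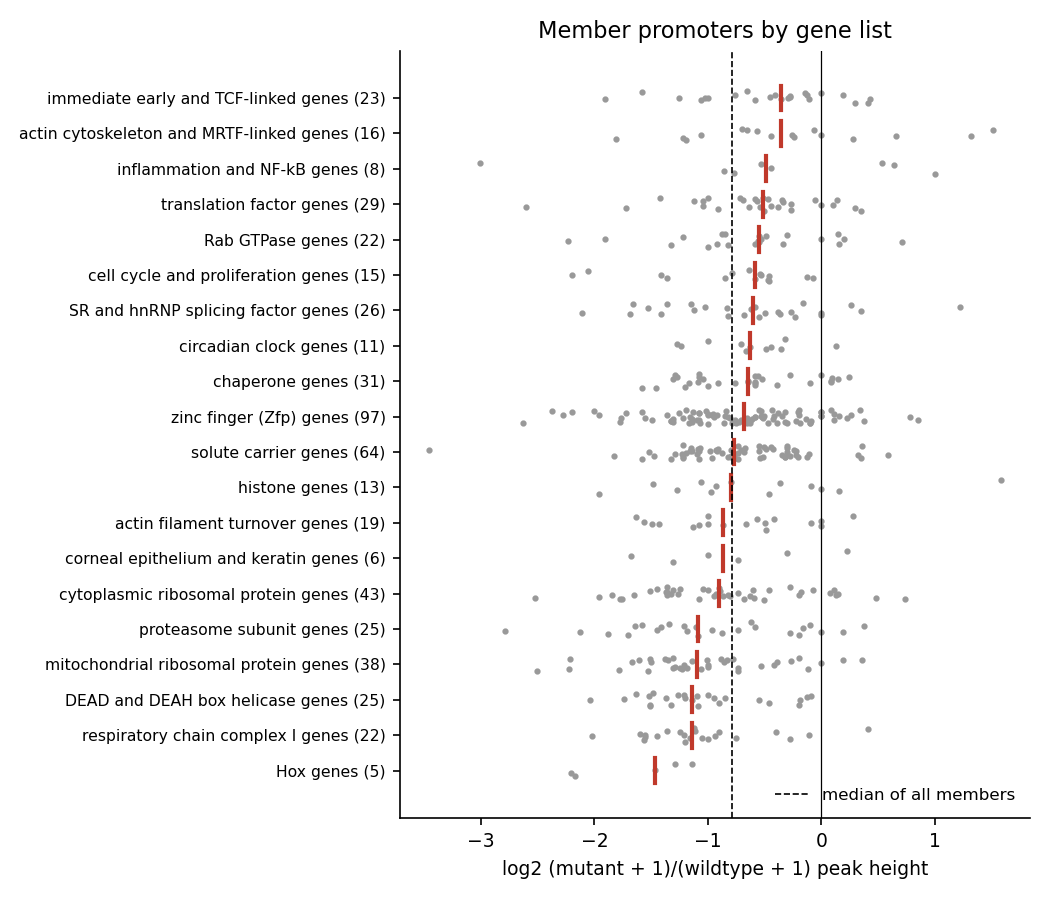
Each grey point is the log2 ratio of mutant to wildtype height of 1 gene's member, for gene lists with at least 5 members, and the red bar is the list median with Dstn counted but not drawn. The immediate early list (median -0.35) and the actin and MRTF-linked list (-0.35) lie to the right of the dashed line, the median of all members (-0.78), and the 5 Hox genes (-1.47) to its left.

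Promoter windows of members were GC-rich, as the island rule implies. Their median GC content was 63.3%, against 54.3% at promoters without an island and 52.7% over all 32851 RefSeq windows. The median ratio of observed to expected CG pairs was 0.84, 0.53 and 0.38 in the same order. The height ratio differed little with GC content, from -0.85 in the fifth of windows with the least GC to -0.72 in the fifth with the most. Searching both strands, the GC box GGGCGG, the site of SP and KLF factors, was found in 75.2% of member windows and 35.7% of all windows. The ETS site CCGGAAGT, the family of the ternary complex factors, was in 10.5% and 3.89%, and the NRF1 site in 12.5% and 4.60%. The CCAAT box was as frequent in members as elsewhere (38.4% and 37.4%), and TATAAA was less frequent (4.94% and 13.6%). GC-rich letters are more frequent in GC-rich windows of any kind, and this was not adjusted for.

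A CArG box was rare. It was found in 41 of 3685 member windows (1.11%, interval 0.80 to 1.51), against 1.63% of all promoter windows, 0.97% of shared island promoters and 1.66% of promoters without an island. With 1 mismatch allowed the shares were 14.7% in members and 21.1% in all windows. The 41 windows held 43 boxes, with a pair each in Dusp5 and Srf. Counting for each member the box nearest its summit, 37 of 41 lay wholly upstream of the start, and 27 began 1 to 120 bases before it. The searched window covers only 300 bases, so boxes elsewhere in a region were not seen.

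Members with a CArG box had a higher median ratio of mutant to wildtype height, though its interval just included the median of members without a box. Their medians were 22 in mutant and 23 in wildtype, with a ratio of -0.49 (-0.79 to -0.22). Members without it had 14 and 23, with a ratio of -0.78 (-0.81 to -0.76). At least 2-fold lower were 10 of 41 with a box (24.4%) and 38.0% of those without, and higher in mutant were 9 of 41 and 8.42%. Read from the other side, a box was present in 2.85% of the 316 windowed members higher in mutant (1.31 to 5.34) and in 0.95% of the 3369 not higher (0.65 to 1.34). With height held equal over 10 classes of members the difference was 0.49 on the log2 scale. It has no interval, and each class held only 2 to 7 members with a box. The same direction was seen in the small sets of other promoters, where 8 shared island promoters with a box had -0.38 and 9 promoters without an island had -0.46, against -0.64 and -1.0 without a box.

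The members with a box were few enough to name, though they were singled out by this search after the values were known. C2cd5, whose product acts in glucose transporter traffic, was the highest, with 38 in mutant and 192 in wildtype, far lower in mutant. Dusp5 had 88 and 121 and carries the pair of adjoining boxes printed above, 12 bp from the summit in both libraries. Vcl had 50 and 60 with its box 8 bp from the wildtype summit and 40 bp from the mutant summit. Srf had 36 and 41, with its nearer box 27 bp and 53 bp away. Dnajc16, a chaperone cofactor gene, had 45 and 71, and its box was 6 bp from the wildtype summit. Egr2 had 54 and 59, but its box lay 293 bp from the summit. These promoters are a choice from the 41, and 10 of the 41 were at least 2-fold lower, Ppif (41 and 114), Rnd3 (28 and 65) and Rpl10a (45 and 91) among them.

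Of the 41 members with a box, 28 had a summit in both libraries, 11 in wildtype only and 2, Fhl2 and Gstp1, in mutant only. Among the 28, the box was nearer the wildtype summit in 11, nearer the mutant summit in 11 and equally near in 6. Among members with a wildtype summit only, Prkab2 (11 and 16) had its box 6 bp from it, Zfp36 (12 and 21) 17 bp and Npm3 (8 and 15) 34 bp. Boxes close to a summit thus occurred in both libraries. Fhl2 (19 in mutant, 6 in wildtype) had its box 3 bp from the mutant summit and no wildtype call. Gstp1, a glutathione transferase gene (13 and 8), had its box 2 bp from the mutant summit and no wildtype call either. Cnn2, for a calponin of stress fibres (29 and 18), had its box 5 bp from the mutant summit and 283 bp from the wildtype summit. Gga1, for a trafficking adaptor (40 and 60), had its box 5 bp from the mutant and 763 bp from the wildtype summit. Over all members with a box the median distance to the summit was 64.5 bp in mutant (40 to 97, 30 members) and 91 bp in wildtype (36 to 163, 39 members), intervals that overlap. The 19 members with a box within 50 bp of a summit of either library had a median ratio of -0.46 (-0.79 to 0.20). The 22 with a box farther away had -0.51 (-1.0 to -0.22). At least 2-fold lower were 3 of the 19 and 7 of the 22. The intervals are wide and overlap, so whether distance to a summit separates the ratios cannot be told.

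The box was concentrated in genes already linked to SRF. Of 33 windowed members in the immediate early, actin and cofactor lists, 7 held a box (21.2%): Cnn2, Dusp5, Egr2, Fhl2, Srf, Vcl and Zfp36. Of the other 3652 windowed members, 34 did (0.931%). The lists were partly drawn from known CArG targets, so this is not independent of the search. The 7 had a median ratio of -0.18 and the 34 had -0.55, against -0.32 for the 26 listed members without a box and -0.78 for the remaining 3618. Zfp36, whose product destabilizes messenger RNA, was the lowest of the 7 in height after Fhl2, with 12 and 21.

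AGGGGGCGC was chosen by looking for short runs frequent in high members, so the heights of members that hold it are a description fixed in part by that choice. It was present in 152 member windows (4.12%, interval 3.51 to 4.82) and in 1.25% of all windows. Members with it had median heights of 30.5 in mutant and 68 in wildtype, and those without it 14 and 22. Most high members lacked it: it was in none of the 10 highest windowed members and in 4 of the 50 highest. By class of height it was in 0.87% to 3.58% of the 7 lower classes of height, in 5.33% and 7.20% of the next classes and in 62 of 373 members of the highest class (16.6%, 13.0 to 20.8). The highest member with it was Adprhl2, with 111 and 240, followed by Rapgef1 (91 and 242), Vps36 (101 and 222), Synm (110 and 190) and Sh3gl1 (82 and 165). Synm encodes an intermediate filament protein, Rapgef1 an exchange factor of the small GTPase Rap1, and Vps36 a subunit of a membrane-sorting complex.

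**Figure D4:**
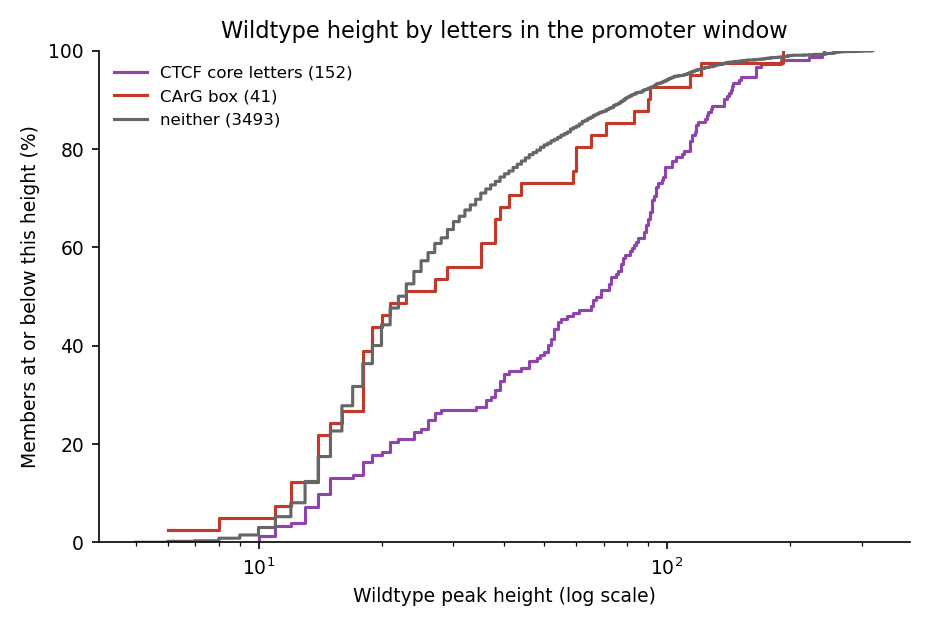
The share of members at or below each wildtype height (logarithmic axis) is drawn for members with AGGGGGCGC in the window, with a CArG box and with neither. The curve of the 152 members with the CTCF core letters lies to the right, with a median of 68, a difference fixed in part by how the letters were chosen, while the 41 with a CArG box have a median of 23.

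The summit lay close to these letters. The median distance from the wildtype summit to the nearest match was 26.5 bp (22.5 to 36.5) and 72.7% of 150 members had it within 50 bp. In mutant it was 36.5 bp, with 68.5% of 124 within 50 bp. Comparable wildtype values were 64 bp and 42.7% for the GC box, 60.5 bp and 41.2% for the ETS site, 53 bp and 49.6% for the cyclic AMP response element TGACGTCA, 82.5 bp for the YY1 site AAGATGGCG, and 177 bp for TATAAA. The same letters in reverse order, CGCGGGGGA, served as a run with the same bases, though it holds more CG pairs. They were in 51 member windows, with heights of 13 and 22, a median summit distance of 117 bp and 22.9% within 50 bp. AGGGGGCGC was picked from high members, with a wildtype median of 68, and distances were not compared at equal height. AGNGGGCGC, with 1 free base, gave 308 members with 23 and 54 and a distance of 35.5 bp. AGGGGGCG, without the last base, gave 594 with 16 and 26 and 65 bp, so both the height and the closeness to the summit were less marked without the last base. AGGGGGCG overlaps the GC box where a G follows, and the full run does not by its own letters.

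**Figure D5:**
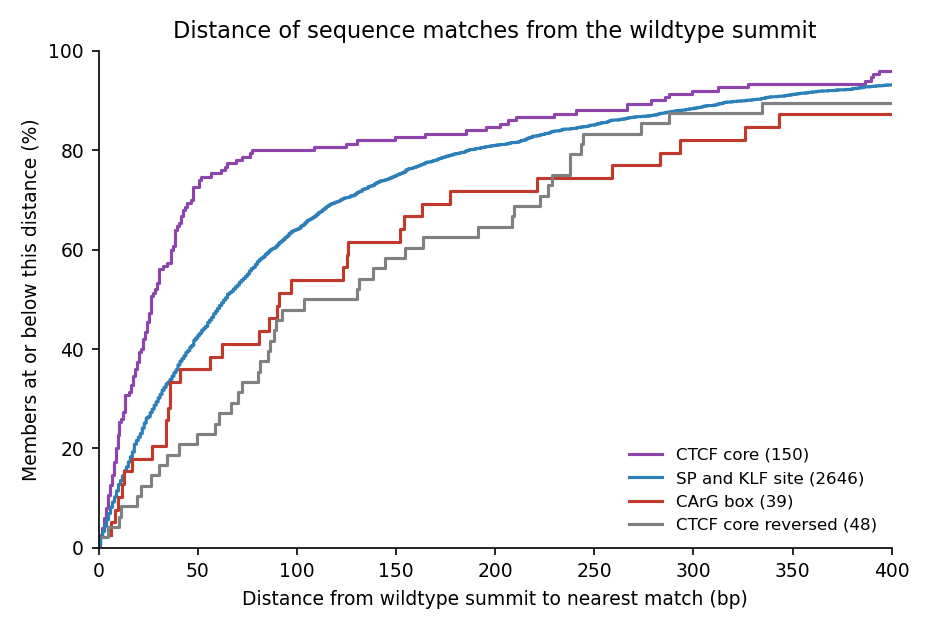
The share of members whose nearest match lies at or below each distance from the wildtype summit is drawn for 4 runs of letters, with the number of members in brackets. The CTCF core letters reach 72.7% within 50 bp, the GC box GGGCGG 42.7%, the CArG box 35.9% and the reversed letters 22.9%.

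The ratio between libraries did not set members with AGGGGGCGC apart once height was considered. Their median ratio was -1.10 and that of members without the letters -0.76, but with height held equal over 10 classes the difference was 0.020. Of the 1393 windowed members at least 2-fold lower in mutant, 90 held the letters (6.46%) and 10 a CArG box (0.72%). Of the 316 higher in mutant, 7 held the letters (2.22%) and 9 a CArG box. For the YY1 site, in 3.66% of members and 1.40% of all windows, the ratio was -0.63 and the difference at equal height 0.17. For the ETS site it was -0.74 and 0.059. The CArG box thus had the largest difference at equal height of the 5 runs compared this way, 0.49, from 41 members and without an interval. Other searched runs were not compared at equal height. Among them the ZBTB33 site, in 44 members, had a ratio of -0.63 (-0.81 to -0.30). Higher in mutant were 18.2% with it and 8.46% without, against 22.0% and 8.42% for the CArG box. The THAP11 site (3.33% and 8.62%) and the cyclic AMP response element (6.06% and 8.67%) went the other way. A raised share was thus not particular to the CArG box. A match describes letters in the window, not binding by the factor named.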

How the data were processed

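SRF ChIP-seq libraries of 1 mutant and 1 wildtype group and 1 input were sequenced. BWA was the aligner and mm10 the build, per the submitters' processing notes. The sources used here do not give the caller, threshold or scaling. Intervals per library were deposited with a table of merged regions, whose signal values are, per the file headers, a peak and an average value per library. Gene assignment, distances and CpG islands are the authors'. Genotype came from the titles.

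Ratios are log2((mutant height + 1)/(wildtype height + 1)), which understates differences of low regions. Standardised differences weight the difference of medians in 10 classes of mean height by the members in each. Medians carry order-statistic and shares exact binomial 95% intervals. Intervals of standardised differences between kinds of region take their width from the raw medians, without height classes, and are approximate. The standardised difference was tried on simulated ratios with a known shift, drawn without regard to height within each class. The link between ratio, height and calls in the data was not simulated, nor were the intervals of the differences tested. Motifs were searched on both strands of RefSeq windows (GRCm38.p6) matched by gene identifier, nearest to the region's centre and overlapping it by at least 1 bp. Python 3.11.15, numpy 2.4.6, pandas 2.3.3, scipy 1.17.1 and matplotlib 3.10.9 were used.

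Named genes are Srf and Dstn, the 10 highest members, the 10 highest and lowest ratios among members whose higher library reached 23, and up to 3 per gene list; exceptions are marked, and a few genes that the rule names are not reported here. Members, lists and rules were chosen with earlier results of these data known. The 26 lists describe and do not test. Alternatives were a pseudocount of 5, the average value, scaling, other promoter distances, stricter sets of regions, 1 region per gene and other motif letters.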

Additional observations from a re-analysis of the deposited data

How the results depend on the processing

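No paired analysis was possible because the design holds a single library of each genotype. Promoter distances of 500 and 2000 bp, 20 height classes and leaving out the 152 members with AGGGGGCGC (an alternative added after seeing the data, median ratio -0.77) moved no value beyond its interval or a count by over 1.5 times. A pseudocount of 5 gave a median ratio of -0.64, 5 members at least 2-fold higher and a difference from promoters without an island of 0.16. The average value gave -0.58, 901 lower, 7 higher and 0.16. Scaling reversed the median ratio to 0.23 with 149 lower and 556 higher. Regions at or above the median of the higher library (28) gave 88.4% called in both, heights of 24 and 51, a ratio of -1.17, 1283 lower, 4 higher, and differences of 0.019 from promoters without an island and 0.043 from islands away from starts. Regions called in both gave heights of 20 and 35, 1101 of 2888 lower (38.1%), 5 higher, a reversed difference of -0.0054 and one of 0.019. Counts in these stricter sets are of fewer members and cannot be set directly against the counts over all members. Shares over all regions were not computed for the stricter sets, the average value or the pseudocount. With 1 region per gene 58.7% were called in both. A CArG box with 1 mismatch was in 14.7%. Under scaling list medians reversed to 0.69 for immediate early, 0.67 for actin and MRTF-linked, 0.19 for actin turnover, 0.11 for epithelium, 0.39 for cell cycle, 0.52 for NF-kB, 0.37 for clock, 0.14 for cytoplasmic ribosomal, 0.42 for splicing, 0.50 for translation, 0.46 for Rab, 0.41 for chaperone, 0.31 for Zfp, 0.26 for solute carrier and 0.23 for histone genes. The median of SRF and its cofactors, 0.020, became -0.038 with the average value. The causes were not tested. Depth is unknown, so how far it limits the low heights could not be given.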
